A study of Rattus norvegicus with 6 samples.

Results

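The transcripts described here encode the contents of the primary (azurophil) granules of neutrophils, measured by RNA-seq in rat subchondral bone, the bone under the joint cartilage, which holds marrow. The 7 genes were taken by name from the 30600 rows with values: 4 granule enzymes (Mpo, Elane, Prtn3 and Ctsg) and 3 alpha-defensins (Np4, Defa5 and RatNP-3b). Each name had 1 row. All 7 passed a median of 1 FPKM (fragments per kilobase of transcript per unit of library size) over the libraries, as did 11625 of the annotated genes, called expressed below. The series set out to compare rats kept in the cold with rats at normal temperature, for the tibial side of the knee, but no label seen here links a library (S10, S12, S13, S20, S21 or S23) to a temperature, treatment, strain, sex or age. All 6 share the description subchondral bone, no groups were compared, and every value below is a level or a spread over 6 libraries. The sources used here do not say whether each library is a separate animal.

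Primary granules are laid down in promyelocytes, the marrow precursors that commit to the neutrophil lineage, and the mature cell carries the stored proteins with little further transcription of their genes. Myeloperoxidase makes hypochlorous acid from hydrogen peroxide and chloride. Neutrophil elastase, proteinase 3 and cathepsin G are serine proteases that need the dipeptidyl peptidase cathepsin C for activation, and alpha-defensins are small cysteine-rich peptides that permeabilise microbial membranes. Rat neutrophils carry alpha-defensins, whereas mouse neutrophils lack them.

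The libraries held 39990624 to 59200981 counts. The 7 genes took 2.83% of all counts in S23, 1.83% in S21, 1.16% in S20, 1.69% in S13, 1.05% in S12 and 1.52% in S10. At this depth no 95% exact binomial interval (Clopper-Pearson) of a share of a member or of their sums reached further than 0.00478 percentage points from it, and the 95% Poisson interval of every member count stayed within 1.48% of the count. Both cover counting error only. Bone and marrow markers stood beside these genes: Col1a1, a chain of type I collagen of osteoblasts, had 166 to 362 FPKM, and Alas2, an erythroid heme enzyme, had 396 to 931 FPKM. In bulk RNA, fewer cells of a type and less RNA per cell cannot be told apart.

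The defensins were above the enzymes on the per-length scale, with ratios of a defensin to an enzyme between 3.77 (RatNP-3b over Ctsg in S12) and 27.4 (Np4 over Prtn3 in S13). By median FPKM the order was Np4 at 9183, Defa5 at 8080.2, RatNP-3b at 5665, Ctsg at 916, Elane at 603, Mpo at 572 and Prtn3 at 471, and among the annotated genes the defensins ranked 8, 9 and 12 and the enzymes between 86 (Ctsg) and 161 (Prtn3). Each defensin exceeded each enzyme in 6 of 6 libraries. Some neighbours in this order did not keep their places: Defa5 was above Np4 in 2 libraries (S12 and S20), Elane was above Mpo in 4, and Prtn3 was above Mpo in 1 (S10). RatNP-3b was below Defa5 and Np4 in every library, although in S20 its ratio to Np4 was 0.998, and Prtn3 was below Elane in every library.

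**Figure D1:**
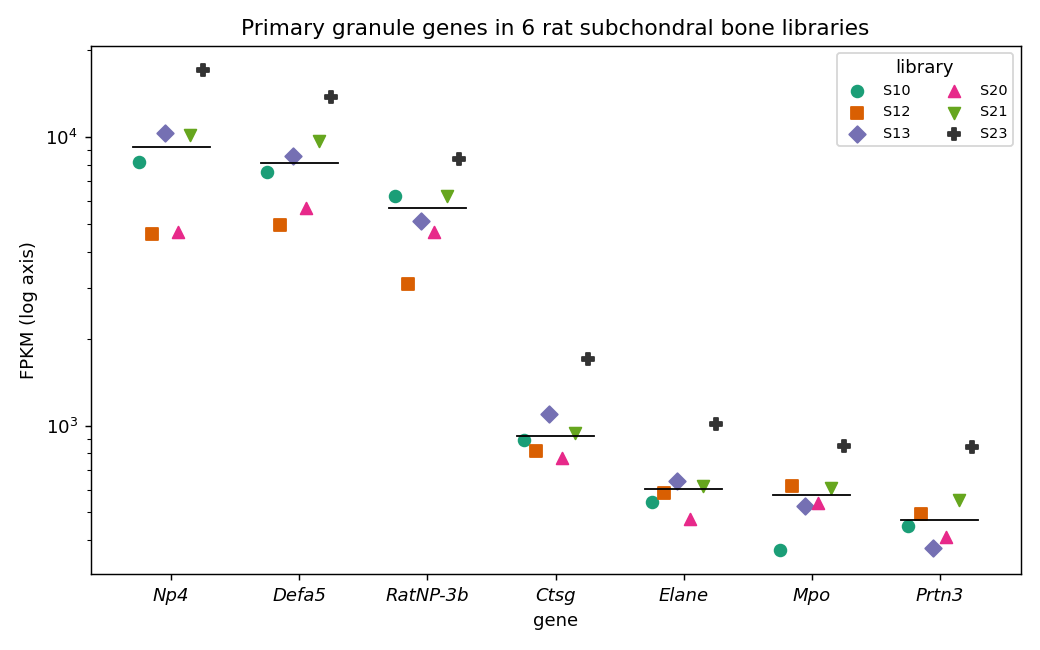
FPKM on a log axis for each gene in each of the 6 libraries, 1 symbol per library, with the median over the libraries as a horizontal line. The defensins lie above the enzymes in every library, and S23 is the highest point of all 7 genes.

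Among the enzymes, Mpo (ENSRNOG00000008310) had 853 FPKM in S23, 608 in S21, 537 in S20, 525 in S13, 617 in S12 and 369.9 in S10. S10 was lowest and S23 highest, and the remaining 4 libraries lay within 525 to 617 FPKM. Elane (ENSRNOG00000033685) had 1016 FPKM in S23, 619 in S21, 476 in S20, 642 in S13, 586 in S12 and 543 in S10. Ctsg (ENSRNOG00000020647) had 1703 FPKM in S23, 939 in S21, 769 in S20, 1095 in S13, 818 in S12 and 893 in S10. For both of these proteases S20 was lowest, S13 was the second highest and S23 stood apart at the top. Prtn3 (ENSRNOG00000029814) had 840.1 FPKM in S23, 554 in S21, 413 in S20, 377 in S13, 493 in S12 and 449 in S10. Here S13, second highest for Elane and Ctsg, was the lowest library. The ratio of Prtn3 to Elane was 0.587 in S13 and 0.827 to 0.894 in the other libraries, so the low S13 value belonged to Prtn3 and was not shared by the gene next to it.

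Among the defensins, Np4 (ENSRNOG00000028707), the gene of the neutrophil peptide NP-4, had 17039 FPKM in S23, 10170 in S21, 4686 in S20, 10322 in S13, 4616 in S12 and 8196 in S10. Defa5 (ENSRNOG00000030093), for which RefSeq lists ratNP-1 and ratNP-2 as synonyms, had 13717 FPKM in S23, 9696 in S21, 5652 in S20, 8609 in S13, 4960 in S12 and 7551 in S10. S12 and S20 were the lowest libraries for both genes and S23 the highest. RatNP-3b (ENSRNOG00000038135), whose RefSeq synonyms are NP-3a and NP-3b, had 8379 FPKM in S23, 6220.3 in S21, 4679 in S20, 5117 in S13, 3083.5 in S12 and 6213 in S10. It was again lowest in S12 and highest in S23, but S20 lay close to S13. RatNP-3b made up 31.2% of the summed defensin FPKM in S20 and 21.3% in S13, and Np4 made up 31.2% in S20 and 43.5% in S23, whereas the Defa5 share stayed between 34.4% (S10) and 39.2% (S12). These genes are close copies, and the sources used here do not say how reads that match several of them were counted, so the split between them is uncertain.

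Sequence shows how close the copies are. The RefSeq promoter table (assembly GRCr8, which need not be the build behind the counts) held 5 of the 7 genes, and the 200 bases before its start site are printed for these, because the 3 enzymes and the 2 defensins differ in the short motifs they hold. Capitals mark matches, on either strand, to the letters GAGGAA (bound by PU.1), TTGCNNAA (a C/EBP-type site), TGTGGT (bound by RUNX factors) and TATAAA (the TATA box). No capital stretch below overlaps another motif. The motifs were chosen after the sequences were seen.
Mpo, chr10:73092202-73092401, + strand: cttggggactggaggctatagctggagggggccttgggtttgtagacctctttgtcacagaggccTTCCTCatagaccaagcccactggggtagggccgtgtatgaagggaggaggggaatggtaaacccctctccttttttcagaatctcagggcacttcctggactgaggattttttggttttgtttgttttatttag
Prtn3, chr7:10476197-10476396, - strand: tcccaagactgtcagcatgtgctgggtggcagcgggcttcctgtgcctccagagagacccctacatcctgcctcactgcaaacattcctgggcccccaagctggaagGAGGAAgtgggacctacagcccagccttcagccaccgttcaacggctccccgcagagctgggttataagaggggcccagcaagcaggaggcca
Ctsg, chr15:33907597-33907796, - strand: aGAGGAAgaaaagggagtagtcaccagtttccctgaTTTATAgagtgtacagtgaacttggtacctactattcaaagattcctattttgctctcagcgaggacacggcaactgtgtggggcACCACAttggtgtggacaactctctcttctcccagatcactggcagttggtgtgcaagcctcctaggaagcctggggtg
Np4, chr16:77199643-77199842, - strand: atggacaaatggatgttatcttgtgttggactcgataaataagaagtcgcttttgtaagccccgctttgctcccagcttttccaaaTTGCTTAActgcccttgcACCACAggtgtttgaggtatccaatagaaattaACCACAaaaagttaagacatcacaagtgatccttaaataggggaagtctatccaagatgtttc
RatNP-3b, chr16:77248978-77249177, - strand: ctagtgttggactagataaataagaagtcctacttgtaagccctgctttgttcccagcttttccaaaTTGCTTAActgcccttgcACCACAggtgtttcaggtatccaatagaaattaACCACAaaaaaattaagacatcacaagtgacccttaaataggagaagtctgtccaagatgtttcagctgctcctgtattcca

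The PU.1 letters occurred in all 3 enzyme promoters and in neither defensin promoter, against 19.0% of 33469 rat promoters of the same length. The C/EBP letters occurred in both defensin promoters and in none of the 3 enzyme promoters, against 7.16% of all promoters. RUNX letters occurred at 2 places in each defensin promoter and at 1 place in that of Ctsg, against 11.5% of all promoters. The exact TATA letters were found in Ctsg alone among the 5, against 10.4%. That match lies at -164 to -159 on the opposite strand. Near matches to the letters of any motif were not searched. A promoter without a match is therefore not shown to lack a TATA box or a PU.1, C/EBP or RUNX site. The defensin promoters are copies of each other: over 280 aligned bases of the 300 in the table, 261 were identical, with 19 mismatches and 4 gap positions, an identity of 91.9%. The C/EBP and RUNX matches of Np4 and RatNP-3b are thus not independent of each other. A match is a description of the letters and not of binding.

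The defensin genes with a row that lie between the abundant genes Defa5 and Np4 had few or no counts. In the GRCr8 gene order, chromosome 16 holds 14 genes and pseudogenes from Defa5 to RatNP-3b, and 10 of them had a row by name. The span was cut at Defa5 and RatNP-3b, so their place at its ends follows from that choice. Defa5 stood at one end, followed by Defa24, Defal1, Defa6, Defa8 and Defa9, which had between 0 and 5 counts summed over all 6 libraries, against 1301229 counts for Defa5. Paneth cells of the gut secrete alpha-defensins of their own, and the Paneth cell genes Mmp7 and Reg3g were also at or near 0, with at most 13 counts in a library. At the other end Np4, Defa10, Defa11 and RatNP-3b all exceeded a median of 1 FPKM. Defa11 had 874 FPKM in S23, 514 in S21, 323 in S20, 557 in S13, 194 in S12 and 243 in S10, and Defa10 ranged from 5.83 FPKM in S20 to 26.4 FPKM in S23. Both shared the highest library with the 3 abundant defensins. The beta-defensin genes Defb1, Defb3 and Defb4, which are made by epithelia, had no counts in any library (0 in each of 6). Such a 0 is compatible with 3 counts, which is 0.0507 to 0.0750 CPM (counts scaled to library size) in these libraries.

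**Figure D2:**
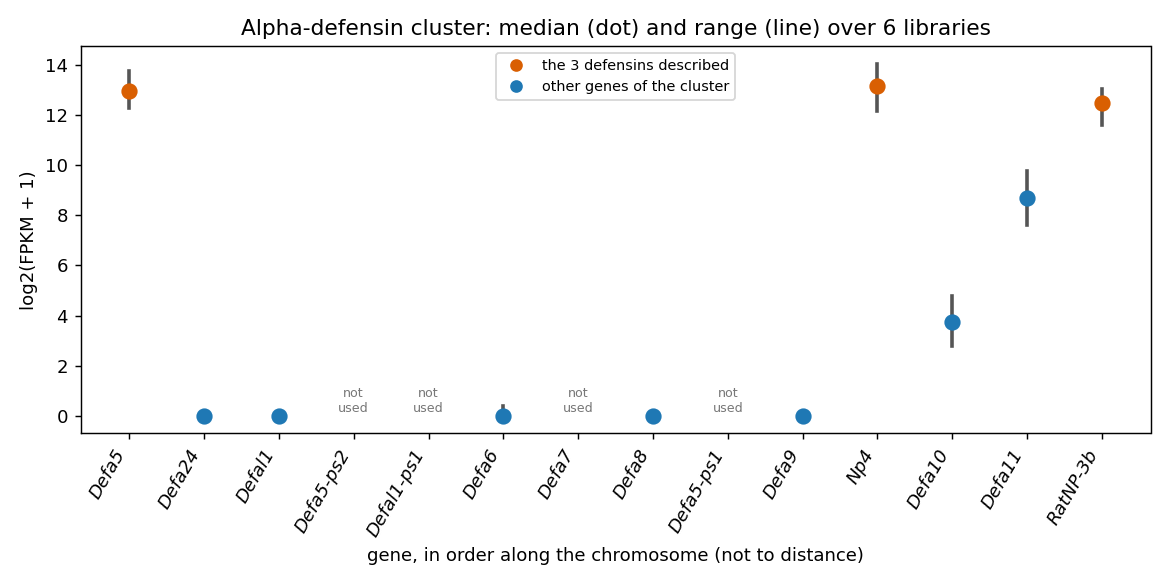
Median (dot) and range (line) of log2(FPKM + 1) over the 6 libraries for the genes of the rat alpha-defensin cluster, in chromosomal order from Defa5 to RatNP-3b and not to distance. The span was cut at Defa5 and RatNP-3b, so their high values stand at its ends by that choice. The genes between Defa5 and Np4 that had a row have medians at 0, with a maximum of 0.318 FPKM (Defa6 in S23).

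Neighbours of the enzyme genes also differed in level. In the same gene order Elane and Prtn3 are adjacent, and next to Elane lies Cfd, the gene of complement factor D, also a serine protease. Cfd had 207 FPKM in S23, 279 in S21, 211 in S20, 264 in S13, 408 in S12 and 435 in S10. Its values were thus close in S20, where Elane was lowest, and in S23, where Elane was highest. A few genes from Mpo lies Epx, the peroxidase of eosinophils, at 142 FPKM in S23, 244 in S21, 11.7 in S20, 289.9 in S13, 234 in S12 and 286 in S10. Mpo in S20, at 537 FPKM, was within the range of S12, S13 and S21, while Epx there was far under every other library. Lpo, the lactoperoxidase gene between them, had at most 0.793 FPKM. Beside Ctsg lie the mast cell and granzyme-type proteases: Mcpt10 had 1138 FPKM in S10 and 378 in S12, Mcpt1l1 from 9.71 to 37.2 FPKM, Gzmf reached 0.344 FPKM and Gzmn had 0 counts. Reads shared between such related proteases were not examined.

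With all 6 libraries, spread was larger for each defensin than for each enzyme. Np4 was 3.69-fold higher in S23 than in S12, Defa5 2.77-fold and RatNP-3b 2.72-fold, each in the same 2 libraries. Without S12 the fold was 1.79 for RatNP-3b, under that of every enzyme, and 3.64 for Np4 and 2.43 for Defa5. The highest library exceeded the lowest 2.30-fold for Mpo, 2.13-fold for Elane, 2.23-fold for Prtn3 and 2.21-fold for Ctsg. All 7 genes had a range of at least 1 unit of log2(FPKM + 1), against 36.6% of the 11625 expressed genes, and their median range was 1.20, against 0.83 for those genes. Abundant genes as a class had wide ranges in these data: of the 237 annotated genes whose median reached 300 FPKM, a limit chosen after the values were seen, 54.4% reached 1 log2 unit. S23 decided most of this count. Without S23 the range was at least 1 unit for Np4 (1.16) and RatNP-3b (1.01), Defa5 had 0.97, and the enzymes had 0.43 (Elane) to 0.74 (Mpo), while 32.0% of expressed genes still reached 1 unit.

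**Figure D3:**
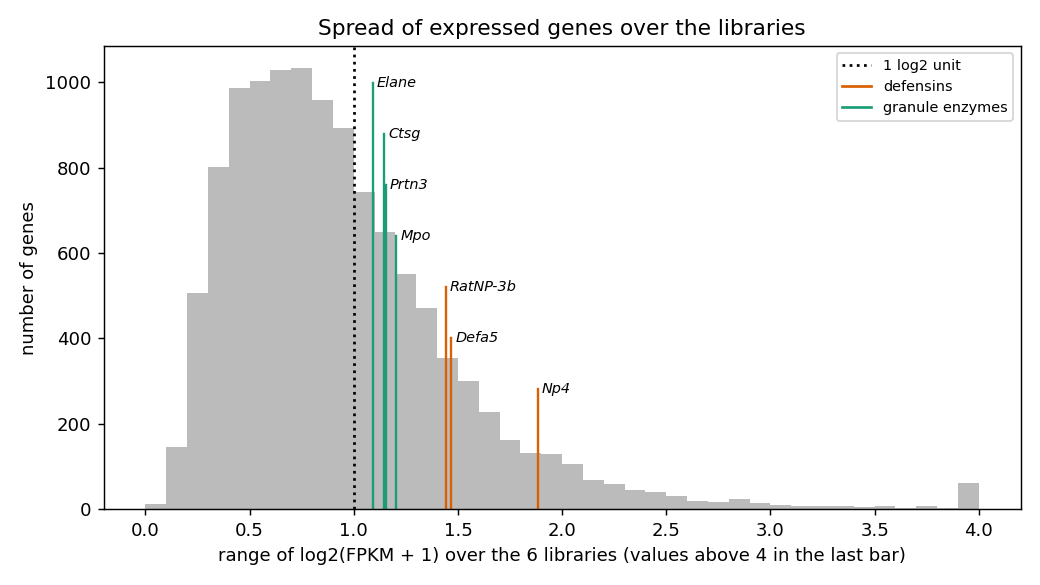
Histogram of the range of log2(FPKM + 1) over the 6 libraries for the 11625 expressed genes, with the 7 granule genes as labelled lines and 1 log2 unit as a dotted line. The enzymes lie between 1.09 and 1.20, close together, and the defensins between 1.44 and 1.88.

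Each of the 7 genes was highest in S23, against 24.0% of expressed genes. For 6 of them this held under all 6 other scalings and corrections tried. For RatNP-3b the highest library was S10 with TMM or median-ratio factors and S23 with the others. The share of expressed genes highest in S23 moved with the scaling, at 16.01% with TMM factors, 15.5% with median-ratio factors, 32.4% with a common FPKM sum, 27.5% in CPM and 23.4% after a correction for transcript length. S23 was also the library with the fewest red cell transcripts in sum: the 4 named globin rows took 10.4% of its counts and 18.9% to 27.6% of the counts of the other libraries, and 0 of 6 red cell genes were highest there. Of these 6 genes, 1 was lowest in S10 and not in S23. The red cell list, which includes these globin rows, summed to 160234 FPKM in S23 and to 304075 to 438179 FPKM in the other libraries, and its part in the S23 values was not tested. With all libraries rescaled to the same FPKM sum without these globins, S23 was still highest for each of the 7 genes, against 9.34% of expressed genes, and the range of at least 1 unit was kept by Mpo (1.09), Prtn3 (1.01) and the 3 defensins (1.13 to 1.58), but not by Elane (0.79) or Ctsg (0.82).

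Summed over genes, the defensins had 39135 FPKM in S23, 26086 in S21, 15017 in S20, 24048 in S13, 12659 in S12 and 21961 in S10. The enzymes together had 4411 FPKM in S23, 2719 in S21, 2195 in S20, 2640 in S13, 2514 in S12 and 2255 in S10. Outside S23 the enzyme sum varied 1.24-fold and the defensin sum 2.06-fold, while with S23 the folds were 2.01 and 3.09. The ratio of the defensin sum to the enzyme sum, which no scaling of whole libraries can alter, was 8.87 in S23, 9.59 in S21, 6.84 in S20, 9.11 in S13, 5.04 in S12 and 9.74 in S10. S12 and S20 had the lowest ratios, and S23, highest for both sums, had a ratio just under those of S10, S13 and S21. The highest ratio exceeded the lowest 1.93-fold, and 1.42-fold without S12.

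**Figure D4:**
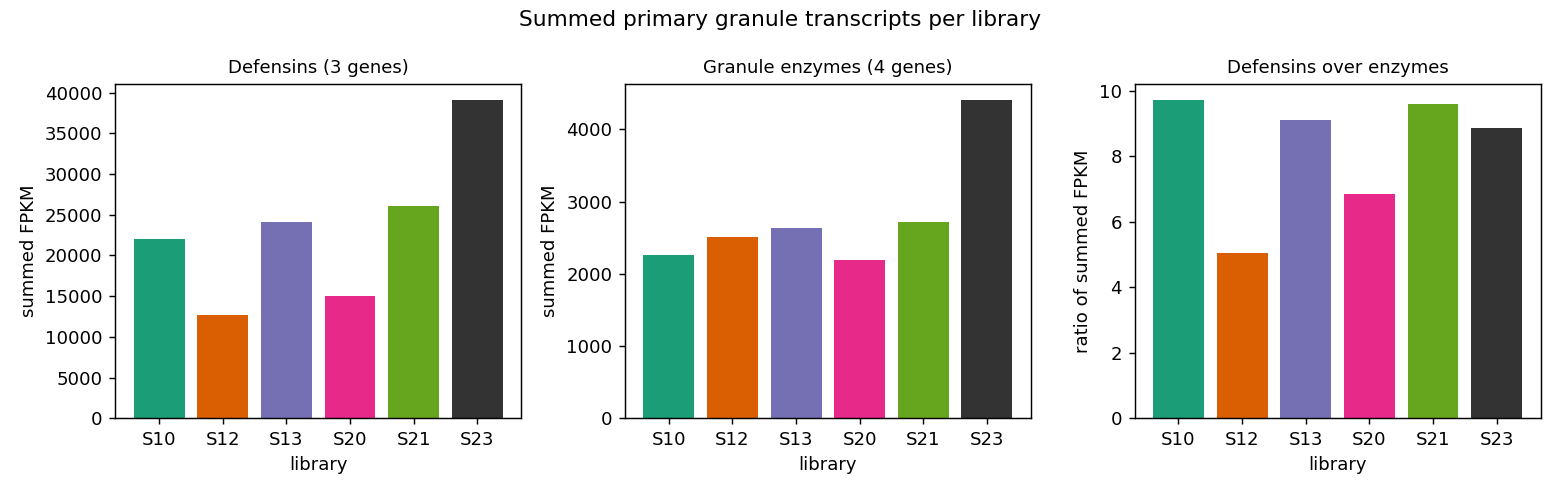
Bars of the summed FPKM of the 3 defensins, of the summed FPKM of the 4 granule enzymes and of the ratio of these sums, for each of the 6 libraries, with all axes starting at 0. S23 has the highest sums, and S12 and S20 have the lowest ratios, 5.04 and 6.84.

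Transcript length moved with these ratios. The lengths implied by the deposited counts and FPKM were 534 to 593 bases for the defensins, 1056 to 1099 bases for Elane, Prtn3 and Ctsg, and 2633 bases for Mpo. Expressed genes in the length bin of Np4 and RatNP-3b had a median deviation, from each gene's own median, of -0.16 log2 units in S12, -0.25 in S20 and 0.14 in S10, and those in the bin of Defa5 had -0.06, -0.25 and 0.03. The enzymes did not move as 1 group: the bin of Elane and Prtn3 had -0.09 in S12, -0.21 in S20 and 0.11 in S10, and that of Ctsg -0.02, -0.10 and 0.01, with the same signs as the defensin bins, while the bin of Mpo had 0.16 in S12, 0.10 in S20 and -0.37 in S10. With these medians removed in 20 length bins, an alternative added after the data were seen, the ratio of defensins to enzymes was 8.65 in S23, 9.63 in S21, 7.57 in S20, 8.95 in S13, 5.45 in S12 and 8.98 in S10, a fold of 1.77 between S21 and S12. S12 and S20 remained the 2 lowest libraries.

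Ratios between 2 genes of a class varied less, by their median, than ratios across classes, with overlap. Over the 6 libraries the ratio of Ctsg to Elane ranged from 1.40 in S12 to 1.70 in S13, a fold of 1.22 and the smallest of all 21 pairs. The 6 enzyme pairs had folds of 1.22 to 1.82, with the 3 pairs that include Mpo at 1.66 to 1.82, and the 3 defensin pairs had folds of 1.39 to 2.03. The 12 pairs of a defensin over an enzyme had folds of 1.70 to 3.36, with the largest for RatNP-3b over Mpo, which was 16.8 in S10 and 5.0 in S12. Length correction brought that fold to 1.90 and those of the Mpo pairs among the enzymes to 1.17 (Elane), 1.34 (Ctsg) and 1.42 (Prtn3). The median fold over cross-class pairs was 2.19 before it and 1.96 after it, against 1.67 and 1.38 within the enzymes and 1.5 and 1.58 within the defensins.

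Of 14 listed azurophil granule partners, 13 had a row, 12 reached a median of 1 FPKM and 6 of these had a range of at least 1 log2 unit, against 36.6% of expressed genes. They were highest in S23 in 11 of 12 cases, against 24.0%, with the exception of the lysosomal protease Ctsd. With TMM factors the count was 6 of 12, against 16.01% of expressed genes. Lyz2, the lysozyme of myeloid cells, had 3769 FPKM in S20 and 15399 FPKM in S23. Srgn, the proteoglycan that packs granule proteins, had a median of 2204 FPKM, the granule membrane protein Cd63 406, Calr, the chaperone needed to fold myeloperoxidase, 369, and the ficolin Fcnb 560.0. Ms4a3, a marker of granulocyte and monocyte progenitors, had 215 FPKM and Nkg7, a granule membrane protein, 240.4. Ctsc, the activator of the serine proteases, had a median of 39.0 FPKM, far under its substrates, and was lowest in S10 at 26.8 FPKM and highest in S23 at 54.7 FPKM. The lysosomal hydrolase Gusb had a median of 55.1 FPKM, and Ctsd had 196. Prss57, a protease related to elastase, had 8.37 FPKM in S20 and 22.4 FPKM in S23. Bpi, which encodes the bactericidal permeability-increasing protein of human azurophil granules, had a median of 0.260 FPKM and 22 to 41 counts in a library.

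The listed regulators of granule genes were low next to the granule enzymes and defensins. The list does not hold activating transcription factors alone. It also holds the repressor Gfi1, its relative Gfi1b, the monocyte factor Irf8, the receptor gene Csf3r and its ligand gene Csf3. The counts below are for the whole list. Of 13 regulators in the list 12 reached a median of 1 FPKM, and 8 of these had a range of at least 1 log2 unit, against 36.6% of expressed genes. S23 was the highest library for 9 of the 12, against 24.0%, and S10 the lowest for 8, close to the 60.1% of expressed genes that were lowest there. With TMM factors S23 was highest for 6 and S10 lowest for 5 of the 12, against 16.01% and 32.9% of expressed genes. Spi1 (PU.1) had 64.7 FPKM in S20 and 156 FPKM in S23, with a median of 92.3. Cebpe, needed for the later granules, had a median of 58.2 FPKM, Cebpd 55.7, Cebpa 28.7, Gfi1, a repressor that neutrophil precursors require, 11.7, and Cebpb 3.95. Cebpa kept close to the enzymes, with 42.7 FPKM in S23, 31.8 in S21, 25.6 in S20, 29.5 in S13, 28.0 in S12 and 25.3 in S10. Its ratio to the enzyme sum varied 1.22-fold over the libraries, against 1.45-fold for Cebpe and for Spi1. Myb and Runx1, factors of earlier precursors that also bind the promoters of these enzymes in mouse and human cells, had their highest values in S20, at 44.0 and 11.7 FPKM, and their lowest in S10, at 17.5 and 4.62 FPKM. Myb varied 2.49-fold against the enzyme sum and Runx1 2.32-fold, against a median of 2.32 for expressed genes. The Runx1 partner Cbfb had a median of 25.9 FPKM and the monocyte factor Irf8 41.3. Gfi1b, the erythroid and platelet relative of Gfi1, had 20.7 FPKM in S23 and 52.2 FPKM in S20, and varied 4.91-fold against the enzymes. Csf3r, the G-CSF receptor, had 51.7 FPKM in S23 and 11.3 in S10, and no counts were found for its ligand gene Csf3 in any library.

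**Figure D5:**
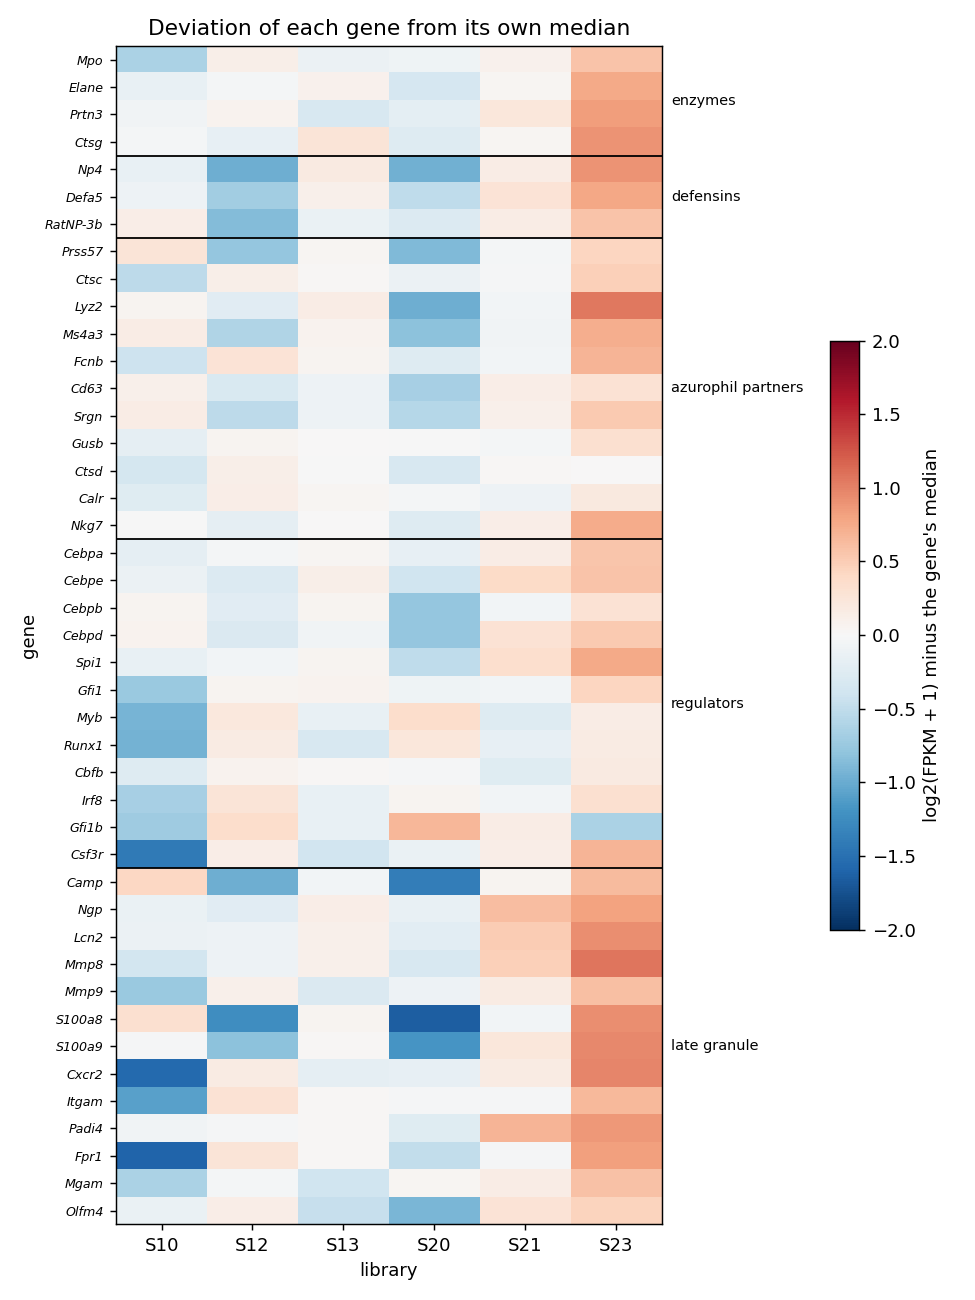
Colour shows how far log2(FPKM + 1) lies from the median of the same gene, for the granule enzymes, the defensins and expressed members of 3 lists (1 of the azurophil partners is not drawn), with 1 column for each of the 6 libraries. The S23 column is red for all 7 granule genes, and S12 and S20 are blue for the 3 defensins, while S10 is the bluest library for Mpo.

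Inhibitors of the granule proteases were present at widely different levels. Serpinb1a, the intracellular inhibitor of elastase, proteinase 3 and cathepsin G, had a median of 638 FPKM, above that of Elane, with 342 FPKM in S20 and 1078 in S23. Slpi, a secreted inhibitor of elastase and cathepsin G, had 24.3 FPKM in S20 and 86.5 FPKM in S23. Serpina1, the plasma inhibitor of elastase made in the liver, had a median of 2.02 FPKM and A2m 0.236, while Serpinb6a had 27.7 and Serping1, the C1 inhibitor, 38.3. Of 5 inhibitors above a median of 1 FPKM, 3 had a range of at least 1 log2 unit, against 36.6% of expressed genes. Of the 5, 2 (Serpinb1a and Slpi) were highest in S23, against 24.0%, and 3 with TMM factors, against 16.01%. Serpinb6a, also with a range past 1 unit, was highest in S10, at 46.8 FPKM against 28.0 in S23.

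Likeness to the summed enzymes and the summed defensins was measured as the fold between the highest and lowest ratio of a gene to the sum over the 6 libraries, on the FPKM + 1 scale. Among non-members, the steadiest ratio to the enzymes was that of Icam2, an adhesion molecule gene, at 1.06-fold with 18.8 FPKM in S20 and 39.0 FPKM in S23. Mboat1, Glrx (glutaredoxin), RGD1308147, Traf1, Sod2 (mitochondrial superoxide dismutase), Tm6sf1 and Cyp4f39 came next, at 1.13-fold to 1.18-fold. Each of these genes was highest in S23, which follows from the selection: the enzyme sum was 4411 FPKM there and at most 2719 FPKM elsewhere. Elane itself, which is part of the sum, had 1.12-fold, Ctsg 1.27-fold, Prtn3 1.42-fold and Mpo 1.49-fold, and the median of all expressed genes was 2.32-fold. The non-members nearest to the defensins were Pglyrp1, the gene of a granule protein that binds peptidoglycan, at 1.35-fold, and Rab5if, Mgst2, Serinc2, Mcemp1, LOC100911109, Pcp4 and LOC690020 at 1.36-fold to 1.42-fold, against a median of 3.48-fold. Defa5, Np4 and RatNP-3b, which are part of that sum, had 1.14-fold, 1.40-fold and 1.46-fold. Ms4a3 and Slpi came close, at 1.42-fold and 1.48-fold. Of the enzymes, Ctsg had 1.79-fold, Elane 1.95-fold, Prtn3 2.49-fold and Mpo 2.89-fold, all under that median. With a pseudocount of 0.1, 5 of the 8 genes nearest to the enzymes and 5 of the 8 nearest to the defensins were again among the nearest 8. RGD1308147, Traf1 and Cyp4f39 were lost for the enzymes, and Serinc2, Pcp4 and LOC690020 for the defensins. Several of these are low, and adding 1 narrows their spread: Cyp4f39 had 0.688 to 2.62 FPKM, Traf1 3.30 to 6.95 and Pcp4 1.15 to 5.82. Over 6 libraries and 11625 genes some steady ratios are found in any case, and no test was made.

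Later neutrophil genes are transcribed after the primary granules are filled. Of 15 listed, 14 had a row and 13 reached a median of 1 FPKM. Ltf, with 18 counts over all 6 libraries, fell below that limit. All 13 were highest in S23, against 24.0% of expressed genes, and had a range of at least 1 log2 unit, against 36.6%. With TMM factors 12 of 13 were highest in S23, against 16.01%, and 84.6% had that range, against 29.4%. S100a8, a subunit of calprotectin, had 4299 FPKM in S20, 5676 in S12 and 25798 in S23, which follows the low S12 and S20 values of Np4. Camp, the cathelicidin gene, had 1046 FPKM in S20, 1392 in S12 and 4244 in S23. Mmp8 and Lcn2 had 347 and 839 FPKM in S12, for both between the values of S10 (288 and 826) and S13 (399 and 956). In S20 they had 299 and 775 FPKM, the lowest value of Lcn2. Ngp was lowest in S12, at 1867 FPKM, with 1966 in S20 and 1978 in S10. Early progenitor genes (Kit, Cd34 and Flt3 among them) were highest in S23 in 0 of 5 cases, against 24.0% of expressed genes. They were lowest in S10 in all 5, against 60.1% of expressed genes, and in 3 of 5 with TMM factors, against 32.9%. Their summed level was 17.7 to 26.4 FPKM in the libraries other than S10. Proliferation genes were highest in S23 in 0 of 8 cases, against 24.0% of expressed genes. The list summed to 679 FPKM there and to 627 (S10) to 942 FPKM (S20) in the others. Its members varied from 1.17-fold (Cdk1) to 4.75-fold (Mki67, at 36.6 FPKM in S23 and 111 FPKM in S20). The eosinophil list was highest in S23 in 0 of 5 cases, against 24.0% of expressed genes. Its summed level was 118 FPKM in S20, against 2043 to 5184 FPKM elsewhere. The monocyte and macrophage list was highest in S23 in 2 of 7 cases, close to the 24.0% of expressed genes. It summed to 375 FPKM there and to 332 (S20) to 499.9 FPKM (S12) in the others. Its members did not move together: C1qa and C1qb were lowest in S23, at 125 and 77.2 FPKM, and Cd68 was highest there, at 87.1 FPKM. The basophil and mast cell list was highest in S23 in 4 of 7, against 24.0% (2 of 7 with TMM factors, against 16.01%). Its sum was 182 FPKM in S23 against 66.3 to 103 FPKM, with Prss34 at 110.5 FPKM in S23 and 3.78 to 6.83 FPKM elsewhere. The part of these cell types in the spread of the granule genes was not tested.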

How the data were processed

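The 6 subchondral bone libraries came from RNeasy-purified RNA and a SMARTER mRNA-Seq kit, per the labels' protocols. The authors deposited 1 table with a whole-number count and an FPKM value per gene and library, per the file headers. Counts are not normalized. FPKM totals were 811992 to 1047309. For the aligner and counter: not given in the sources used here. The submitters' processing notes name the mouse builds GRCm38 and mm10 although the rows carry Ensembl IDs of rat, which leaves the build of the counts unsettled. Of 30610 rows 10 held no values. The labels give no group, so values are given per library or as range and median, and no test was made.

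Members and lists were chosen with earlier results of these data known. Named genes are the 7 members, all azurophil partners, other defensins, regulators and inhibitors in the lists, up to 4 genes of each other list by median FPKM, and the 8 genes nearest to each sum. Others, chosen after their values were seen, are Alas2, the chromosomal neighbours, Mki67, Mmp8, Lcn2, Ltf and Prss34. Some genes of the lists are counted but not reported here by name. Lists had no row for Azu1, Defa7, Serpina3n, Mmp25, Mcpt8, Mcpt1, Ccr2 and Lyz1, among others. Ranges use log2(FPKM + 1), which understates those of low genes. Promoters and gene order are from RefSeq, GRCr8. Alternatives were TMM (edgeR 4.0.16) and median-ratio factors from the counts, a common FPKM sum with or without globins, CPM from counts, a pseudocount of 0.1, other FPKM minimums, length correction (added) and leaving out each library. Only the functions for the range, the ratio of a gene to a sum and the median-ratio factors were run on simulated counts. The last was run without a known scaling to recover. The other steps, the length correction among them, were not tested in this way.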

Additional observations from a re-analysis of the deposited data

How the results depend on the processing

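The fold between the highest and lowest library was 2.01 for the enzyme sum, 3.09 for the defensin sum and 1.93 for their ratio in the deposited FPKM. With TMM factors it was 2.08 and 3.31 for the sums, with median-ratio factors 2.07 and 3.28, with a common FPKM sum 2.5 and 3.15, and with a common sum without the named globins 1.81 and 2.5. These scalings cannot alter the ratio. CPM from counts gave 2.07, 3.20 and, for the ratio, 2.12, and length correction, added after the data were seen, gave 1.84, 2.64 and 1.77. Leaving out 1 library gave 1.24 to 2.01 for the enzymes and 2.06 to 3.09 for the defensins, each lowest without S23, and 1.42 to 1.93 for the ratio, lowest without S12. The number of members with a range of at least 1 log2 unit was 7, and 5 to 7 under the other scalings and a pseudocount of 0.1. It was 4 after length correction (Prtn3 and the 3 defensins) and 2 to 7 with 1 library left out, lowest without S23. The share of expressed genes past the same limit was 21.7% to 51.4% over these scalings, 20.5% without a filter on low genes and 32.8% at a median of at least 10 FPKM. The median over expressed genes of the deviation from the gene's own median was -0.31 log2 units in S10 and 0.14 in S12 in the deposited values, and between -0.02 and 0.01 in every library with TMM factors. No paired analysis was possible because the labels give neither groups nor shared replicate numbers. Counting error is far under the spread of the 7 genes, so depth limits only the genes near 0 counts.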
